A study of Homo sapiens with 6 samples.

Results

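The 9 genes HLA-B, HLA-C, HLA-E, HLA-F, B2M, TAP1, TAP2, TAPBP and ERAP1 encode molecules of major histocompatibility complex (MHC) class I and the machinery that loads them with peptide. They were taken by symbol from a table of 58735 rows, and each symbol had a single row. RNA-seq had been done on ACHN cells, an established human renal cancer cell line, in 3 libraries transfected with a control siRNA and 3 transfected with an siRNA against OTUD1, a deubiquitinase. The labels give no further treatment, allele or time that sets the groups apart, and the sequence of that siRNA was not used here. A single siRNA was used, so effects of its target and of its sequence cannot be told apart. Whether replicate libraries came from separate cultures is not stated in the labels, so the p-values speak only of the spread among these 6 libraries, which may be technical.

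MHC class I molecules display short peptides from inside the cell to CD8 T cells. Each consists of a heavy chain (HLA-B and HLA-C among the classical forms, HLA-E and HLA-F among the nonclassical) bound to the light chain beta-2-microglobulin, the product of B2M. Proteasomes cut proteins into peptides, the TAP1-TAP2 transporter carries them into the endoplasmic reticulum, ERAP1 trims their ends, and tapasin (TAPBP) holds an empty class I molecule next to the transporter until a well-fitting peptide binds. Transcription of these genes is known to be raised by interferons, with IRF1 among the factors that act, and by NF-kB. NLRC5 acts as a coactivator of some of them.

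Start regions of these genes were searched for short motifs known from class I promoters, and 5 are printed because they belong to the gene that fell most (TAPBP), to both transporter subunits, to the light chain and to a classical heavy chain. RefSeq windows (GRCh38.p14) run from 250 bases before to 50 bases after an annotated start, and 8 of the 9 genes (all but HLA-E) matched, with 10 windows, since TAP1 and ERAP1 have 2 each. Capitals mark matches, on either strand, to the interferon-stimulated response element (GAAA and again GAAA after any pair of bases), the CCAAT box (CCAAT) and the NF-kB site. Adjacent or overlapping matches run together in capitals.
TAPBP, chr6:33314029-33314328, minus strand: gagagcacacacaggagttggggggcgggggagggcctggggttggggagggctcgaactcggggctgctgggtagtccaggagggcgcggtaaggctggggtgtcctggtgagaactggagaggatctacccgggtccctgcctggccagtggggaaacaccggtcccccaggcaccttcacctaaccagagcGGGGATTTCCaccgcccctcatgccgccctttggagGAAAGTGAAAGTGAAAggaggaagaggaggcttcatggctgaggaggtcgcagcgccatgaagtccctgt
TAP1, chr6:32853655-32853954, minus strand: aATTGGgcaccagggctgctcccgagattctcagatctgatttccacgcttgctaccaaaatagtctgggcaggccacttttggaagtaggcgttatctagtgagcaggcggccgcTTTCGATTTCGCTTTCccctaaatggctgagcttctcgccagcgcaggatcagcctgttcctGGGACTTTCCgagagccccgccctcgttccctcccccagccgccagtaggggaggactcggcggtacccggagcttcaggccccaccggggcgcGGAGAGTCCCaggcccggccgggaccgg
TAP2, chr6:32838690-32838989, minus strand: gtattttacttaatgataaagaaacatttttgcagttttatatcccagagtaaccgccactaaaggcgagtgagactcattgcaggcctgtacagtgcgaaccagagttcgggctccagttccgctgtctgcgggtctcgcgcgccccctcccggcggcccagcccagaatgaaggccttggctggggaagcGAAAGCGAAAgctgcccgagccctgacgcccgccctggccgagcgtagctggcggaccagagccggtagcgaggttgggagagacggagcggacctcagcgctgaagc
B2M, chr15:44711267-44711566, plus strand: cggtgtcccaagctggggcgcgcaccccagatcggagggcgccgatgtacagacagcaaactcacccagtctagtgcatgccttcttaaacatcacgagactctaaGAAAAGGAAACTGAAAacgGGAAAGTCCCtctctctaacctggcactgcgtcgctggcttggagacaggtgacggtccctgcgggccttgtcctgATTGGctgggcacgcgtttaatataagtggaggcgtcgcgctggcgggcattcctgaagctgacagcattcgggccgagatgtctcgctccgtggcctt
HLA-B, chr6:31357130-31357429, minus strand: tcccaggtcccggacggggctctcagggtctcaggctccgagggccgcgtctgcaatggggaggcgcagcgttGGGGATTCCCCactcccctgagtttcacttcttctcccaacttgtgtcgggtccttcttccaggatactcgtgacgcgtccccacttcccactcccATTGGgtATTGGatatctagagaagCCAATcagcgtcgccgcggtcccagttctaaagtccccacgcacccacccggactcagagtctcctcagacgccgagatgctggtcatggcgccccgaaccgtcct

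The interferon element was found in 6 of the 10 windows, 1 each of B2M, ERAP1, HLA-F, TAP1, TAP2 and TAPBP, and in 3.57% of the 35116 RefSeq windows of that length. In TAPBP it occurs as 2 overlapping matches, the first beginning 20 bases before the start, and in TAP2 as 1 match beginning 58 bases before. The printed TAP1 window has a pair of overlapping matches from 134 bases before the start, and B2M a pair from 144. The other TAP1 window, like the second of ERAP1, holds 0 matches to the 3 motifs in capitals. An NF-kB match was present in 6 of the 10 windows against 11.3% of all windows, and a CCAAT box in 6 of the 10 against 34.6%. HLA-B and HLA-C had 0 matches to the interferon element as spelled above, and HLA-F and TAP2 had 0 NF-kB matches. Looser spellings of these motifs were not searched, so absence of a match is not absence of an element. Of 3 further motifs searched on both strands, the core of the cAMP response element (TGACG) was in 4 of the 10 windows against 24.6%, the GC box (GGGCGG) in 5 against 45.0%, and the gamma-activated site (TTC, any 3 bases, GAA) in 1, the unprinted TAP1 window, against 7.66%. HLA-B holds 3 CCAAT boxes in the last 81 bases before its start and 2 overlapping NF-kB matches beginning 177 and 176 bases before it. These matches describe letters in the reference genome and not binding in ACHN cells. The motifs were chosen after the windows were seen, so the shares beside those of all windows are no test of enrichment.

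All 9 genes had enough counts to be tested among 15244 genes. After OTUD1 siRNA 6 were lower (TAPBP, TAP2, ERAP1, HLA-B, B2M and HLA-C), 1 was higher (HLA-E) and 2 did not pass (HLA-F and TAP1), at an adjusted p below 0.05 in edgeR's quasi-likelihood test. Of all genes tested, 31.1% were lower and 29.3% higher by the same rule. The groups did not overlap for 8 of the 9 genes, HLA-C being the exception, and for 64.5% of all genes tested. The median log2 fold change (OTUD1 siRNA over control siRNA) was -0.20 for the 9 genes and 0.01 for all genes tested, while the median size of the change was 0.20 against 0.32. Most members thus moved by less than the typical gene, and the largest change, that of TAPBP, was equalled or exceeded in size by 19.3% of genes. In bulk RNA, fewer cells of a type and less RNA per cell cannot be told apart.

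**Figure D1:**
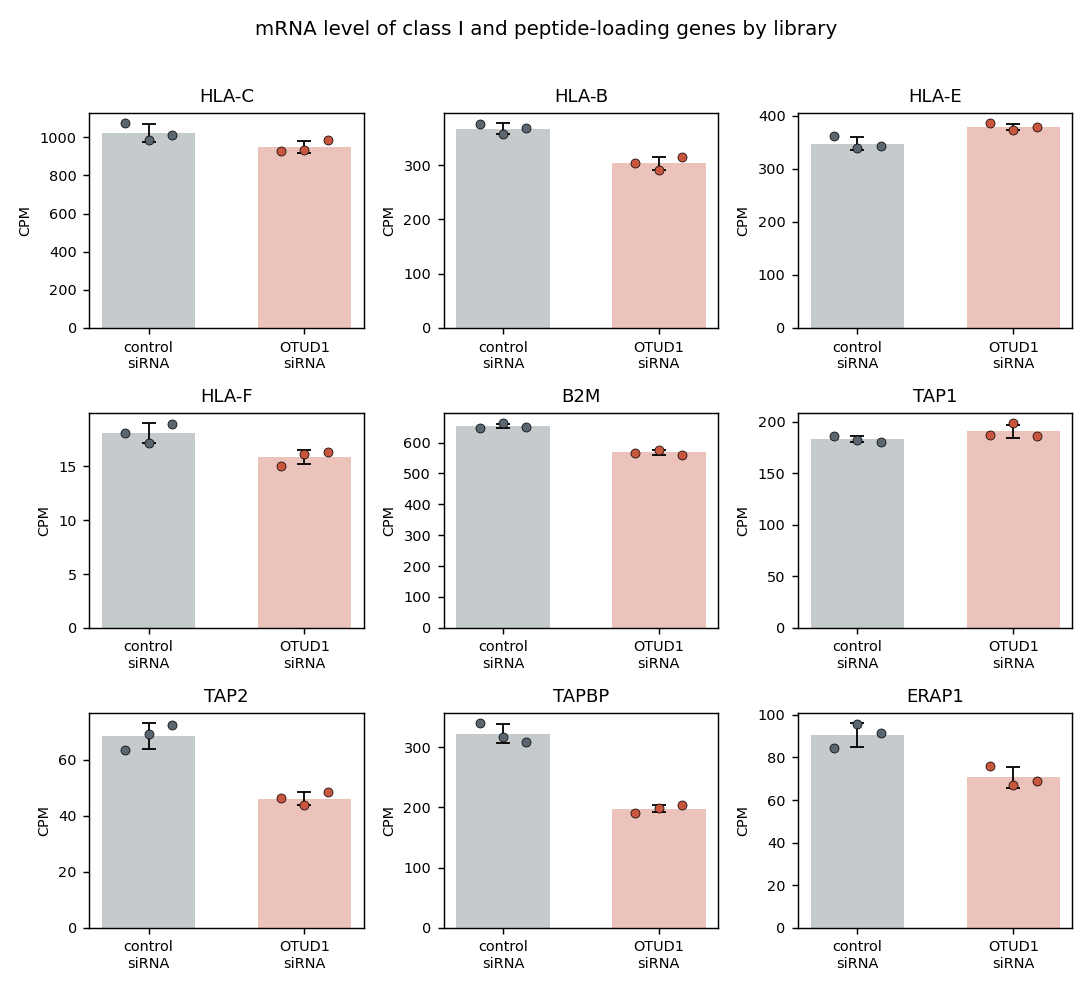
mRNA level (y axis, CPM, TMM-scaled) of each of the 9 genes in the control siRNA and OTUD1 siRNA libraries. Points are the 3 libraries of a group, bars the mean and whiskers the SD. TAPBP, TAP2, ERAP1, HLA-B, HLA-F and B2M lie wholly lower after OTUD1 siRNA, HLA-E and TAP1 wholly higher, and the HLA-C groups overlap.

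OTUD1 itself, the target of the siRNA, was 3.22-fold lower, at 3.69 to 3.82 CPM (counts scaled to the normalized size of the library) in the control and 0.844 to 1.39 CPM in the OTUD1 siRNA libraries. STAT3 rose (log2 fold change 0.42) and CD274, the gene of PD-L1, did not pass (0.22, adjusted p = 0.0797 by edgeR), though it did with a minimum mean of 5 CPM (0.27), with library totals (0.35) and without OTUD1 siRNA replicate 3 (0.29). Total counts were 16753495 to 18993534 in the control and 17243433 to 21013530 in the OTUD1 siRNA libraries, and TMM normalization factors were near 0.96 in the former (0.955 to 0.957) and near 1.05 in the latter (1.045 to 1.046). Of 10 leukocyte markers, PTPRC, CD3E, LYZ and CD53 were at 0 in all libraries, and the summed level of all 10 was 3.03 to 5.26 CPM in control and 3.38 to 4.28 CPM in OTUD1 siRNA libraries. Of 10 markers listed for renal epithelial tumour cells, VIM and CDH2 among them, 9 were tested. Of those 9, 8 fell and 1 rose, and CDH6 was at 0. The sums of all 10 were 7143 to 7362 CPM in control and 3674 to 3767 CPM in OTUD1 siRNA libraries. The keratins KRT8 (1912 to 4185 CPM over all libraries) and KRT18 (712 to 1634 CPM) weighed most in these sums. The 4 endothelial markers summed to at most 0.934 CPM in any library. Summed fibroblast markers, nearly all THY1, went from 284 to 295 CPM down to 143 to 153 CPM. The part of these marker changes in the results was not tested.

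Among the loading factors the largest fall was that of tapasin. TAPBP (ENSG00000231925.11; hg38 chromosome 6, 33299694 to 33314387, minus strand) stood at 340, 318 and 309 CPM in control replicates 1 to 3 and at 191, 199 and 203 CPM in OTUD1 siRNA replicates 1 to 3. Every OTUD1 siRNA library lay far under every control library. The mean went from 322 ± 15.7 to 198 ± 6.20 CPM (SD, n = 3 each), a log2 fold change of -0.70 (adjusted p = 5.84e-16 by edgeR, SE 0.037), or 1.63-fold lower. Its call held in all 14 alternative settings, with log2 fold changes between -0.73 and -0.55.

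The transporter subunits differed in their calls. TAP2 (ENSG00000204267.13; chromosome 6, 32821833 to 32838780, minus strand) was at 63.4, 69.3 and 72.5 CPM in the control libraries and at 46.2, 43.7 and 48.3 CPM after OTUD1 siRNA, with no overlap. It fell by 0.57 on the log2 scale (adjusted p = 6.76e-10 by edgeR, SE 0.056), or 1.49-fold. TAP1 (ENSG00000168394.11; chromosome 6, 32845209 to 32853978, minus strand), the partner subunit encoded a few kilobases away, was at 186, 182 and 180 CPM in control and at 187, 198 and 186 CPM in OTUD1 siRNA libraries. The TAP1 groups nearly touched without crossing, and its log2 fold change of 0.06 (adjusted p = 0.155 by edgeR, SE 0.036) did not pass. With a minimum mean of 5 CPM TAP1 passed as higher (0.11, adjusted p = 0.00922), as it did with library totals (0.19, adjusted p = 4.35e-05) and after quantile normalization with limma (0.20, adjusted p = 5.05e-05).

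The TAP2 counts carry an uncertainty of annotation. In GENCODE 29 the protein-coding gene AL669918.1 shares 2064 exon bases with TAP2 on the same strand, 32.3% of the TAP2 exon bases. Of all 50-base windows of the principal TAP2 transcript, 80.2% also occur in transcripts of AL669918.1. The table lists AL669918.1 with 0 counts in all 6 libraries, so it is not known whether reads of the shared exons were given to TAP2 or left out. TAP1 shares 456 exon bases with PSMB8-AS1 on the opposite strand, which had 7 to 11 counts in control and 20 to 33 in OTUD1 siRNA libraries, few beside the 2971 to 4098 counts of TAP1.

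ERAP1, the aminopeptidase that trims peptides in the endoplasmic reticulum (ENSG00000164307.12; chromosome 5, 96760810 to 96808100, minus strand), was at 84.4, 95.5 and 91.3 CPM in control and at 75.9, 67.1 and 68.7 CPM in OTUD1 siRNA libraries. The highest OTUD1 siRNA library stayed under the lowest control library. Its log2 fold change was -0.36 (adjusted p = 9.62e-07 by edgeR, SE 0.052), or 1.28-fold lower, and it kept its call in all 14 alternative settings. It shares 299 exon bases, 3.76% of its own, with CAST on the opposite strand, and whether strand was used in counting was not stated.

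Of the heavy chains HLA-B and HLA-C fell and HLA-E rose, all by small amounts, and HLA-F did not pass. HLA-B (ENSG00000234745.10; chromosome 6, 31269491 to 31357188, minus strand) was at 376, 358 and 368 CPM in control and at 304, 291 and 315 CPM in OTUD1 siRNA libraries, which lay wholly lower. Its log2 fold change was -0.28 (adjusted p = 3.93e-08 by edgeR, SE 0.034), or 1.21-fold lower. HLA-E, which presents leader peptides of other class I chains to the NK-cell receptor NKG2A (ENSG00000204592.8; chromosome 6, 30489467 to 30494205, plus strand), was at 361, 338 and 342 CPM in control and at 385, 373 and 378 CPM after OTUD1 siRNA. The lowest OTUD1 siRNA library exceeded the highest control library, and its log2 fold change was 0.13 (adjusted p = 0.00128 by edgeR, SE 0.032), or 1.09-fold higher. Both HLA-B and HLA-E kept direction and call in all 14 alternative settings, although the size ran from -0.30 to -0.09 for HLA-B and from 0.11 to 0.32 for HLA-E.

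HLA-C, the most abundant heavy chain of the 4 (ENSG00000204525.16; chromosome 6, 31268749 to 31272130, minus strand), was at 1073, 985 and 1012 CPM in control and at 929, 933 and 987 CPM in OTUD1 siRNA libraries. OTUD1 siRNA replicate 3 lay within the control range. Its log2 fold change of -0.11 (adjusted p = 0.0036 by edgeR, SE 0.031) passed with TMM scaling, but it was 0.021 (adjusted p = 0.561) with library totals and 0.10 (adjusted p = 0.00633) after quantile normalization with limma. The direction of HLA-C therefore depended on the scaling. HLA-F, a nonclassical chain of low level (ENSG00000204642.13; chromosome 6, 29722775 to 29738528, plus strand), was at 18.1, 17.2 and 19.0 CPM in control and at 15.1, 16.2 and 16.3 CPM in OTUD1 siRNA libraries, from 290 to 331 counts per library. The groups did not overlap, yet the log2 fold change of -0.19 (adjusted p = 0.0583 by edgeR, SE 0.086) did not pass. It passed without control siRNA replicate 2 (-0.23, adjusted p = 0.0454) and after quantile normalization with limma (-0.20, adjusted p = 0.0421).

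B2M, the light chain that pairs with these heavy chains (ENSG00000166710.18; chromosome 15, 44711487 to 44718877, plus strand), was at 649, 662 and 651 CPM in control and at 568, 577 and 559 CPM in OTUD1 siRNA libraries. The groups were tight and separate. Its log2 fold change was -0.20 (adjusted p = 3.3e-07 by edgeR, SE 0.028), or 1.15-fold lower, but 0.016 (adjusted p = 0.59) after quantile normalization with limma. With library totals the median change of all genes shifted by 0.129 on the log2 scale, which is larger than the change of HLA-C, of HLA-E and of TAP1 under TMM.

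**Figure D2:**
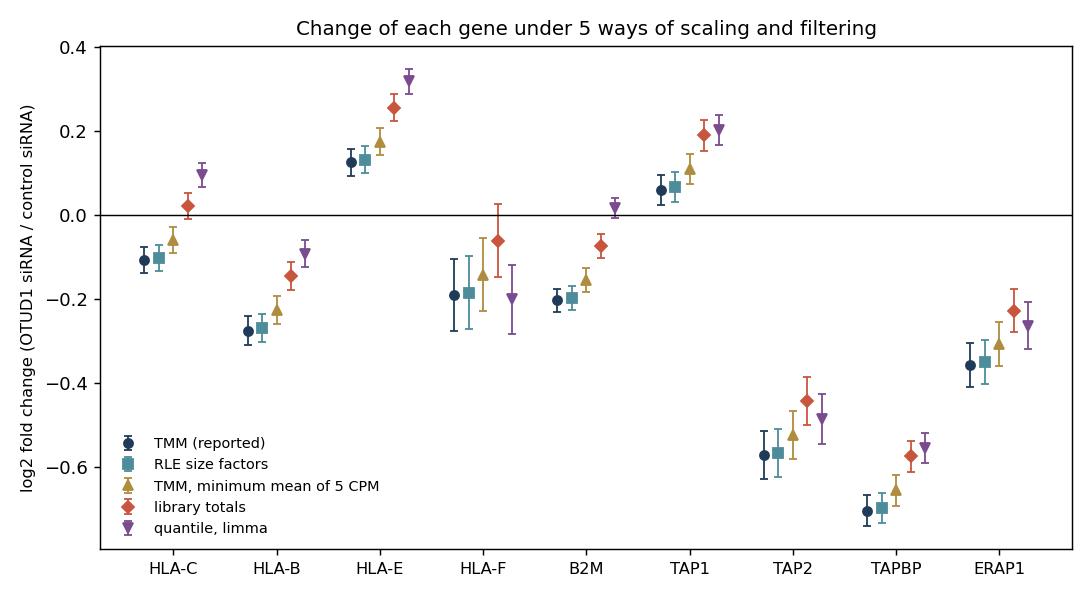
log2 fold change (y axis, OTUD1 siRNA over control siRNA) of each gene under 5 settings, with the SE as whiskers. TAPBP, TAP2, ERAP1 and HLA-B stay under 0 and HLA-E above 0 in each, whereas HLA-C and B2M cross 0 and TAP1 rises from 0.06 to 0.20.

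Relations between genes of the same library do not depend on the scaling. Per B2M count, HLA-E went from 0.511 to 0.557 in the control libraries up to 0.645 to 0.679 after OTUD1 siRNA, a rise of 0.33 in the mean log2 ratio. TAP1 per B2M went from 0.275 to 0.287 up to 0.329 to 0.343, a mean log2 difference of 0.26. TAPBP per B2M went from 0.475 to 0.524 down to 0.337 to 0.364, a mean log2 difference of -0.50, and that of TAP2 per B2M was -0.37. The groups did not overlap for these 4 ratios, each with an exact two-sided permutation p = 0.1, the smallest that 3 against 3 libraries allow (0.15 after adjustment over 12 ratios). The share of all genes whose ratio to B2M did not overlap was not computed. In CPM, 64.5% of all genes tested did not overlap. With TMM scaling B2M itself had a log2 fold change of -0.20 and TAP1 one of 0.06, so the TAP1 ratio reflects both genes. For HLA-B, HLA-C, HLA-F and ERAP1 the ratios to B2M overlapped between groups, with mean log2 differences of -0.07, 0.10, 0.01 and -0.15.

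**Figure D3:**
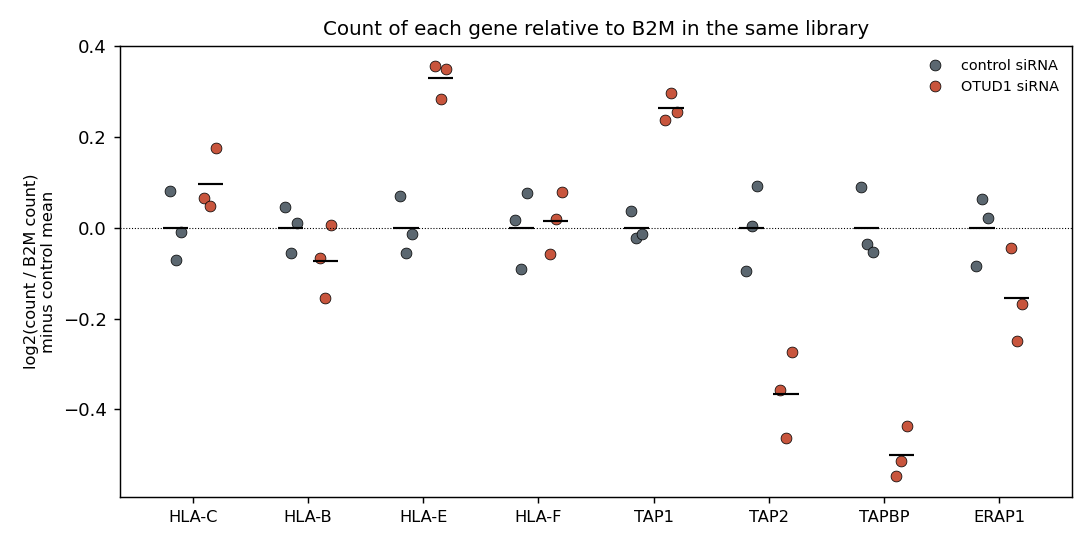
log2 ratio of the count of each gene to the B2M count of the same library, minus the control mean (y axis). Points are libraries and bars group means. HLA-E and TAP1 lie above, and TAP2 and TAPBP under, all control libraries, with mean differences of 0.33, 0.26, -0.37 and -0.50.

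Further pairs were chosen after the values had been seen. TAP2 per TAP1 count was 0.341 to 0.402 in control and 0.220 to 0.259 in OTUD1 siRNA libraries, a mean log2 difference of -0.63. TAPBP had 1.72 to 1.83 counts per TAP1 count in control and 1.01 to 1.09 after OTUD1 siRNA, a mean log2 difference of -0.76. HLA-E had fewer counts than HLA-B in every control library (0.930 to 0.961 per HLA-B count) and more in every OTUD1 siRNA library (1.201 to 1.28). Of the summed counts of the 4 heavy chain genes, HLA-E took 19.8% ± 0.131 in control and 23.0% ± 0.651 after OTUD1 siRNA (SD, n = 3 each), HLA-B 20.9% ± 0.310 and 18.4% ± 0.324, and HLA-C 58.3% ± 0.363 and 57.6% ± 0.680. For HLA-E the exact 95% binomial intervals of single libraries, which cover counting error only, reached at most 20.4% in control and began at 21.8% or above after OTUD1 siRNA.

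Heavy chain genes resemble each other, so reads can be misassigned. Of the 50-base windows of the principal transcript, 6.79% in HLA-C, 5.13% in HLA-E, 2.54% in HLA-B and 1.70% in HLA-F also occur in transcripts of another gene, and none in B2M, TAPBP or ERAP1. The HLA-B gene model reaches into HLA-C and shares 35 exon bases with it. HLA-F shares 535 exon bases, 12.3% of its own, with HLA-F-AS1 on the opposite strand, which had 7 to 38 counts per library. Pseudogenes on the opposite strand also overlap. HLA-F shares 701 exon bases (16.1%) with AL645939.1 and 257 with RPL23AP1, and HLA-B 542 (17.8%) with AL671883.2. All of these pseudogenes had 0 counts. The reference carries a single allele of each of these highly variable genes, and how well reads of the ACHN alleles were assigned was not tested.

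Per kilobase of exon, the control levels ran from HLA-C (408 ± 18.0 CPM per kilobase) through HLA-B (120 ± 3.04), HLA-E (117 ± 4.15), B2M (108 ± 1.18), TAPBP (63.8 ± 3.11), TAP1 (38.0 ± 0.598), ERAP1 (11.4 ± 0.703) and TAP2 (10.7 ± 0.720) to HLA-F (4.17 ± 0.207). HLA-B and HLA-E overlapped there, as did ERAP1 and TAP2. In the OTUD1 siRNA libraries HLA-E (127 ± 2.13) stood above HLA-B (99.5 ± 3.98) without overlap, and TAP1 (39.6 ± 1.39) and TAPBP (39.2 ± 1.23) had overlapping levels per kilobase. The order depends on the length chosen: per kilobase of the principal transcript, chosen after the data were seen, B2M was second in control at 384 CPM per kilobase, TAPBP stood at 171, ahead of HLA-E at 134, and TAP2 (27.4) exceeded ERAP1 (16.4). After OTUD1 siRNA, per kilobase of the principal transcript, HLA-B (196 ± 7.85) stood above HLA-E (146 ± 2.44), and TAPBP (105 ± 3.28) above TAP1 (64.4 ± 2.25). By the level per kilobase of exon, HLA-C exceeded 99.5% of the 15222 tested genes with a length, and HLA-F 49.9%.

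**Figure D4:**
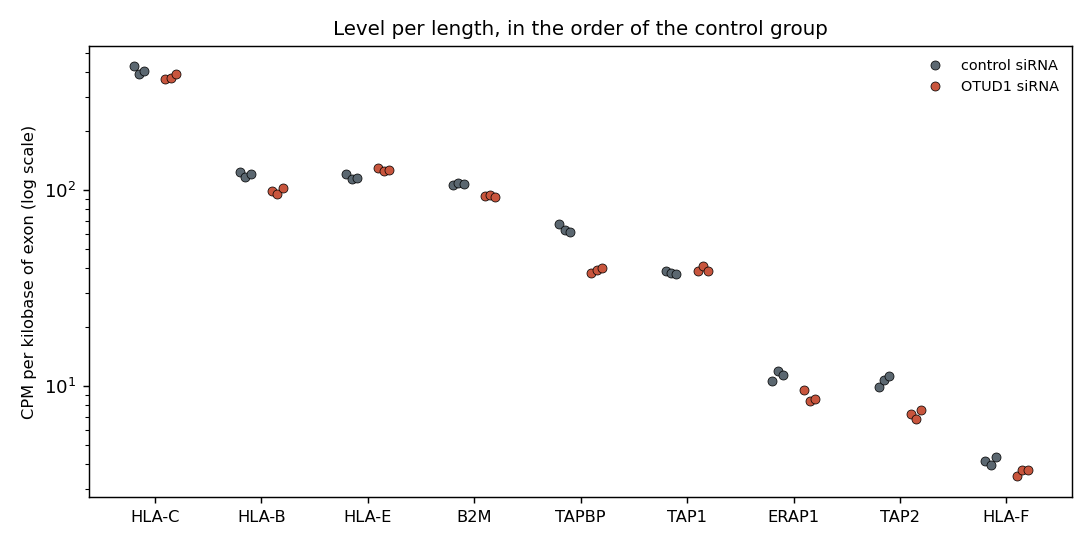
Level per length (y axis, CPM per kilobase of merged exons, log scale) of the 9 genes in every library, ordered by the control mean. HLA-C is highest at 408 in control and HLA-F lowest at 4.17. With this length TAPBP drops to the level of TAP1 after OTUD1 siRNA. Per kilobase of the principal transcript TAPBP stays higher there (105 against 64.4 for TAP1).

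Other genes of the pathway were read from lists, and their counts stand beside the 31.1% of all genes that were lower and the 29.3% that were higher. Of 15 genes that supply peptides, 9 fell and 5 rose, with a median log2 fold change of -0.22. The immunoproteasome subunits went different ways. PSMB10 was at 24.9, 25.1 and 28.1 CPM in control and at 13.2, 11.02 and 11.7 CPM after OTUD1 siRNA, 2.17-fold lower (log2 fold change -1.12, adjusted p = 7.4e-12 by edgeR, SE 0.089). PSMB9, whose start lies next to that of TAP1 on the opposite strand, fell 1.23-fold (-0.30, SE 0.041), and PSMB8, which lies between TAP1 and TAP2, rose 1.17-fold (0.23, SE 0.044). The PSMB9 count per TAP1 count, a pair chosen after the values had been seen, was 0.796 to 0.860 in control and 0.612 to 0.691 in OTUD1 siRNA libraries. Of the cytosolic peptidases NPEPPS fell 2.21-fold and TPP2 1.37-fold, while BLMH rose 1.75-fold and NRDC 1.25-fold. The constitutive subunit PSMB7 fell 1.27-fold. LAP3 rose 1.09-fold, a call lost without a filter, with DESeq2, and without control siRNA replicate 1 or 2 or OTUD1 siRNA replicate 2 or 3 (log2 fold changes of 0.10 to 0.13).

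Of 14 loading partners listed for the endoplasmic reticulum, 9 fell and 3 rose, with a median of -0.21. The lectin chaperones that hold newly made heavy chains fell, CANX from 749 ± 22.6 to 404 ± 13.7 CPM (1.85-fold, SE 0.031 on the log2 scale) and CALR from 1554 ± 50.8 to 942 ± 9.58 CPM (1.65-fold, SE 0.027). TAPBPL, a tapasin relative that edits the bound peptides, was at 21.7, 22.03 and 24.6 CPM in control and at 15.2, 13.9 and 13.3 CPM after OTUD1 siRNA, 1.61-fold lower (log2 fold change -0.69, adjusted p = 8.19e-08 by edgeR, SE 0.087). LNPEP, an aminopeptidase of endosomes that was nonetheless counted in this list, fell 1.504-fold. PDIA3, the disulfide isomerase that pairs with tapasin, had a log2 fold change of -0.03 (edgeR adjusted p = 0.443). Of the enzymes that trim glucose from the glycans of new glycoproteins, GANAB, the catalytic subunit of glucosidase II, rose from 202 ± 6.75 to 475 ± 9.23 CPM (2.36-fold) and MOGS from 76.3 ± 4.91 to 135 ± 0.758 CPM (1.76-fold). PRKCSH, the other subunit of glucosidase II, fell 1.08-fold from 262 ± 9.05 to 243 ± 4.37 CPM. The chaperone HSPA5 rose 1.08-fold. After quantile normalization with limma 5 of the list passed as higher.

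Of 16 transcription factors that bind or activate class I promoters, 11 fell and 1 rose, with a median of -0.27. IRF1 was at 132, 125 and 133 CPM in control and at 43.1, 50.2 and 45.0 CPM after OTUD1 siRNA, 2.82-fold lower (SE 0.051). The NF-kB subunit RELA fell 1.65-fold from 115 ± 2.86 to 70.1 ± 3.64 CPM, NFKB1 fell 1.18-fold, IRF2 1.51-fold and RFX5, of the complex on the X box, 1.29-fold. ATF1 rose 1.29-fold. NLRC5 was at 7.54 ± 1.70 CPM in control and 6.48 ± 0.453 CPM after OTUD1 siRNA, a log2 fold change of -0.22 that did not pass (edgeR adjusted p = 0.19). It passed without control siRNA replicate 2 (-0.35, adjusted p = 0.0466). With library totals, as after quantile normalization with limma, 2 of the list were higher. For comparison, the largest fall among the 9 genes was the 1.63-fold fall of TAPBP.

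Of 12 genes of interferon gamma signalling, which include IRF1 again, 9 fell and 1 rose, with a median of -0.56. SOCS1, a feedback inhibitor, fell 2.54-fold from 9.03 ± 1.40 to 3.57 ± 0.135 CPM. GBP1, an interferon-induced GTPase, fell 2.02-fold, whereas its relative GBP2 rose 1.46-fold. The receptor chain IFNGR2 fell 1.63-fold and IFNGR1 had a log2 fold change of -0.03 (edgeR adjusted p = 0.706).

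Of 10 tested class I-like molecules outside the classical pathway, 5 rose and 3 fell, with a median of 0.18. MR1, which presents vitamin metabolites to mucosal-associated T cells, was 1.87-fold higher (18.8 ± 2.27 to 35.3 ± 0.371 CPM). CD1D, which presents lipids, was 2.50-fold higher from a low level (1.04 ± 0.190 to 2.62 ± 0.668 CPM). HFE, a regulator of iron uptake, rose 1.42-fold and the NKG2D ligand MICA 1.39-fold. PROCR, a receptor of protein C, fell 1.75-fold, the NKG2D ligand ULBP3 1.72-fold and MICB 1.10-fold. MICB lost its call with a minimum mean of 5 CPM (log2 fold change -0.09), with library totals (-0.0061), after quantile normalization with limma (-0.023) and without control siRNA replicate 3 (-0.11). HLA-G had 0 counts in all 6 libraries.

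Of 14 tested genes of class I turnover and repression, 9 fell and 1 rose, with a median of -0.18. The members of the Polycomb complex that methylates histone H3 fell together, SUZ12 1.77-fold, EED 1.51-fold and EZH2 1.27-fold. Of the intramembrane proteases listed, SPPL2A fell 2.01-fold and SPPL3 did not pass (log2 fold change 0.0083). Whether SPPL2A acts on class I was not tested. TMEM127, which acts with SUSD6 and WWP2 in the removal of class I from the surface, rose 1.53-fold, while SUSD6 and WWP2 did not pass (log2 fold changes of 0.08 and 0.12). This list was the most sensitive to scaling, with 5 lower and 4 higher with library totals.

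Of 12 tested class II genes, 3 fell, 2 rose and 7 did not pass, with a median of 0.01. CD74, the invariant chain, fell 1.73-fold from 155 ± 4.74 to 89.5 ± 4.61 CPM, and HLA-DMB and the protease CTSS fell 1.38-fold and 1.37-fold. The protease LGMN rose 1.13-fold, a call lost without control siRNA replicate 1 (log2 fold change 0.12). HLA-DOA rose 1.81-fold from 0.724 CPM, a call lost without a filter, with DESeq2, after quantile normalization with limma and without any of control siRNA replicates 2 and 3 and OTUD1 siRNA replicates 1 and 3. Its log2 fold change, 0.86 over all libraries, was 0.58 after quantile normalization with limma and 0.78 to 0.87 in the other settings that lost the call. HLA-DPA1 and HLA-DPB1 had log2 fold changes of 0.03 and -0.01 (edgeR adjusted p = 0.717 and 0.933), and HLA-DRA had 0 counts.

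**Figure D5:**
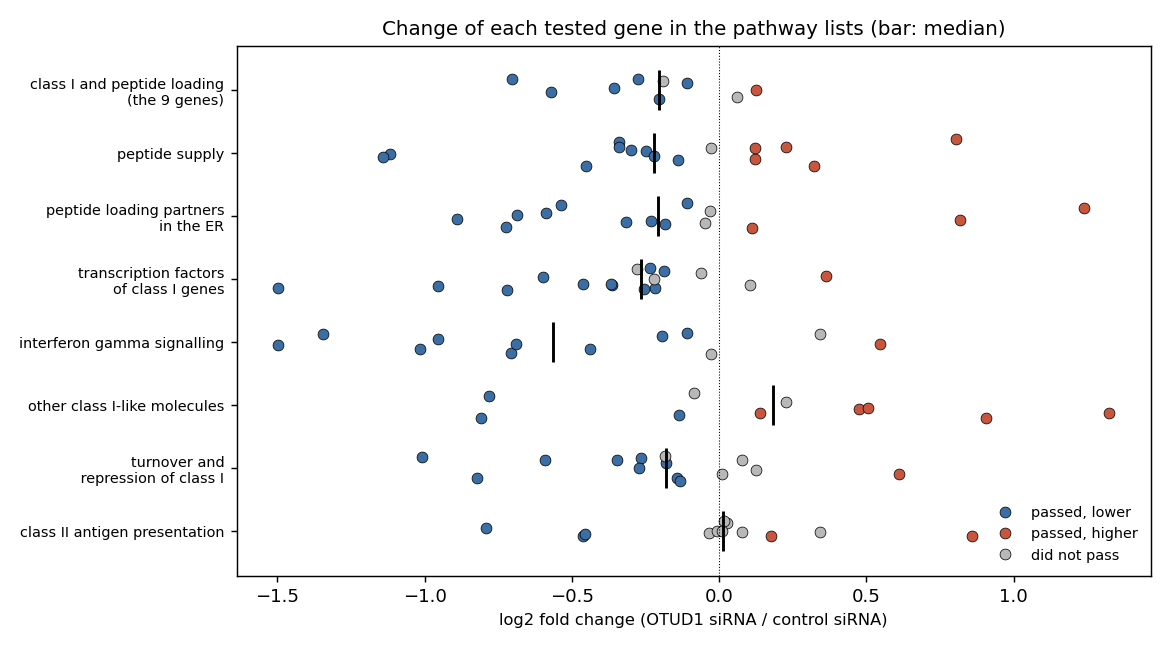
log2 fold change (x axis, OTUD1 siRNA over control siRNA) of each tested gene of the 9 and of the 7 pathway lists. Colours give the edgeR call and black bars the median of each row, from -0.56 for interferon gamma signalling to 0.18 for other class I-like molecules.

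Of the 9 genes, 7 lie in the MHC on chromosome 6. Between the first and last annotated base of those 7 (hg38 29722775 to 33314387), 111 other genes were tested, of which 25 were lower (22.5%) and 38 higher (34.2%), with a median log2 fold change of 0.03. With library totals 16 were lower and 52 higher. The largest falls were those of TNF (4.73-fold), the sialidase NEU1 (2.23-fold), ABHD16A (2.11-fold, from 0.824 CPM) and the heat shock genes HSPA1B (2.10-fold) and HSPA1A (2.01-fold), whose reads may be split since they are near-identical copies. The largest rises were those of AL662844.4 (3.95-fold), PSMB8-AS1 (2.76-fold), MUCL3 (2.67-fold), CFB (2.34-fold, from 0.306 CPM) and C6orf47 (2.11-fold). ABHD16A lost its call without a filter, with DESeq2, with library totals and without any of control siRNA replicates 1 and 3 and OTUD1 siRNA replicates 1 and 2, with log2 fold changes of -1.201 to -0.79. CFB lost its call without a filter, with DESeq2, after quantile normalization with limma and without any of control siRNA replicates 1 and 3 and OTUD1 siRNA replicate 3, with 0.85 to 1.27.

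Across the 6 libraries, the genes nearest to the mean pattern of the 6 members called lower, by Euclidean distance of centred log2 CPM among 11028 genes with a mean of at least 5 CPM, were SH2B3 (distance 0.028), TGM2 (0.031), GRB2 (0.032), CD9 (0.035) and PCLAF (0.043). Their log2 fold changes were -0.36, -0.38, -0.38, -0.34 and -0.38. The distance mostly reflects the difference between the groups.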

How the data were processed

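RNA-seq was done on 6 ACHN libraries. Per the labels' protocols, a Trizol extraction was followed by a library kit that keeps strand. The deposited table is named for FPKM but holds whole-number counts per gene symbol, and per the submitters' processing notes the build is hg38. Aligner, counter, strand setting and annotation: not given in the sources used here. All 58735 rows carry a name, and 99.95% of the symbols matched GENCODE 29, from which coordinates and exon lengths come. Counts were filtered with filterByExpr (minimum count 10, minimum total 15), scaled by TMM and tested with edgeR 4.0.16 (glmQLFit, glmQLFTest, R 4.3.3), two-sided, with Benjamini-Hochberg adjustment over 15244 genes and a threshold of 0.05. CPM is relative to the scaled library size, and 3 counts equal 0.137 to 0.188 CPM. SE is the log2 fold change over the root of F. Libraries of a group differed by more than sampling noise (chi-square per gene, on average, 2.06 to 3.78), so none was counted as a copy. The fit was tested on simulated data.

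The members, the pathway lists and the rule for named genes were chosen with earlier results of these data known. The rule took all 9 members, up to 4 genes lower and 4 higher per list with a mean of at least 1 CPM, 7 class I transcription factors whatever their result, and 5 lower and 5 higher genes of the MHC region. IFNGR1, IFNGR2, PDIA3, PRKCSH, SUSD6, WWP2, SPPL3, PSMB9, HLA-DPA1, HLA-DPB1 and genes at 0 counts were named outside it, after their values were seen. A gene that the rule named is not reported here. The promoter motifs were also chosen after the windows were seen. Alternatives covered the filter, the scaling, DESeq2 1.42.0, limma 3.58.1, the replicate number as a block and each library left out.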

Additional observations from a re-analysis of the deposited data

How the results depend on the processing

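TAPBP, TAP2, ERAP1, HLA-B and HLA-E kept direction and call in all 14 alternatives, over which 5 to 7 members were lower. HLA-C lost its call with a minimum mean of 5 CPM (log2 fold change -0.059) and turned with library totals (0.021) and quantile normalization with limma (0.10). B2M turned after quantile normalization with limma (0.016). TAP1 passed as higher with a minimum mean of 5 CPM (0.11), library totals (0.19) and quantile normalization with limma (0.20), so that 2, 2 and 3 members were higher under these. HLA-F passed after quantile normalization with limma (-0.20) and without control siRNA replicate 2 (-0.23). Leaving out each library in turn, the log2 fold change of HLA-F ran from -0.23 to -0.15. Its log2 ratio to B2M, 0.01 over all libraries, ran from -0.032 (without control siRNA replicate 2) to 0.051 when single libraries were left out, and was -0.019 without OTUD1 siRNA replicate 3. The cause of these shifts was not tested.

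With library totals the transcription factor list had 2 higher, the turnover list 5 lower and 4 higher, and the MHC region 16 lower and 52 higher. The quantile setting changes both the normalization and the test. After quantile normalization with limma the loading partners had 5 higher, the transcription factors 2, turnover 3 and class II 1. Over all genes, called changes were 48.4% higher with TMM and 64.2% with library totals (3456 lower and 6189 higher). Per kilobase of the principal transcript, control levels were 666 for HLA-C, 384 for B2M, 237 for HLA-B, 171 for TAPBP, 134 for HLA-E, 61.8 for TAP1, 27.4 for TAP2, 16.4 for ERAP1 and 11.1 for HLA-F. Same-numbered libraries shared little (correlations of deviations from the group means 0.0283, 0.132 and -0.00249 over 11037 genes), and not every library correlated best with its own number. With the replicate block, 4791 genes were lower and 4484 higher, and TAPBP had a log2 fold change of -0.70. Of 790 values of 57 other named genes under the alternatives, 0 reversed and 31 lost a call, over 6 genes. Depth limits HLA-F, with 290 to 331 counts a library, more than any other member.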
